A study of Mus musculus with 14 samples.

Results

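Extracellular and lysosomal proteases and their inhibitors were examined in fibroblasts lacking Ptdsr, the gene now called Jmjd6. The members were the cathepsins, serpins, cystatins, Adam and Adamts proteases and plasminogen activators whose platform symbol matched those name stems and that had a log2 ratio on at least 10 of 14 arrays. Of 74 matching symbols, 68 genes met that minimum, out of 9290 genes with a symbol that did so. They comprised 17 Adam genes, 10 Adamts or Adamtsl genes, 11 cathepsins, 8 cystatins, 18 serpins and 1 plasminogen activator, Plau. The stems also took in 3 cleavage stimulation factor genes (Cstf1, Cstf2 and Cstf2t), which act in mRNA 3′ end formation and are neither proteases nor inhibitors. Matrix metalloproteinases and their Timp inhibitors were not included.

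Knockout Ptdsr-/- mouse fibroblasts were compared with wild-type Ptdsr+/+ fibroblasts on 14 two-colour cDNA arrays. Both RNAs were hybridised together on every array, the knockout labelled with Cy5 on 7 of them and with Cy3 on 7. The design text speaks of 2 cultures without saying which arrays came from which, so p-values measure the spread between arrays, part of which may be technical. The labels state neither strain, age or passage nor the form of the Ptdsr allele. Values are given throughout as the log2 ratio of the knockout to the wild type, after each array was centred on its median and the probes of a gene were averaged. This direction is likely rather than stated, because it rests on the sign of the coded extreme values in the deposited ratios. In bulk RNA, fewer cells of a type and less RNA per cell cannot be told apart.

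Cathepsins are mostly lysosomal proteases that degrade proteins delivered by endocytosis and autophagy, and fibroblasts also secrete some of their precursors. Cystatins inhibit cysteine cathepsins, while serpins trap serine proteases such as plasmin, thrombin and the plasminogen activators. Adam proteases cut membrane proteins close to the cell surface and release their outer parts, and Adamts proteases are secreted and cleave matrix proteins such as proteoglycans. Ptdsr was first described as a receptor for dying cells and encodes a nuclear JmjC-domain protein.

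Between 13165 and 19615 of 20355 probes had a usable ratio on an array. The Jmjd6 gene itself averaged -0.25 ± 1.04 (SD, n = 14) and was below 0 on 12 of 14 arrays, but replicate 2 stood at 2.92, and limma did not call the gene (adjusted p = 0.934). The deposited ratios hold no levels, so whether fibroblast markers were present could not be read. Of 14 fibroblast marker genes tested, none passed the adjusted test. At an unadjusted p below 0.05 in limma, 2 (14.3%, Col6a1 and Dcn) passed, against 5.35% of all genes. Of 11 macrophage and leukocyte markers, only Lyz2 (lysozyme) was called, lower in the knockout at -1.62 ± 0.96 (SD, n = 14, limma adjusted p = 0.0104). Over all genes, 0.0863% were called. At an unadjusted p below 0.05 in limma, 2 of these markers (18.2%, Lyz2 and Cd68) passed, against 5.35% of all genes. Means were below 0 for 8 of the 11 (72.7%), against 49.6% of all genes, and above 0 for Aif1, Cybb and Mrc1. Endothelial (6 tested), epithelial (7), smooth muscle (3) and mast cell (2) markers gave no adjusted call. At an unadjusted p below 0.05, 2 endothelial markers (33.3%) passed in opposite directions, Emcn at 0.75 and Eng at -0.34. Among the epithelial markers 1 (14.3%) passed, Krt14 at -0.48.

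No member was called as different between knockout and wild-type fibroblasts after adjustment over all genes. The model was a limma fit with a dye term and Benjamini-Hochberg adjustment over 9270 genes, and 67 members entered it. Serpinb2 had too few arrays with the knockout in Cy3. None of the 67 was called at an adjusted p below 0.05, against 0.0863% of all genes (8 genes, all lower in the knockout), and the smallest adjusted p of a member was 0.711. At an unadjusted p below 0.05, 4 members (5.97%) passed, against 5.35% of all genes. All 4 had negative means: Serping1, Adam30, Adam17 and Ctsa. None passed in the higher direction, against 2.41% of all genes, while the lower direction held 2.94% of all genes. This one-sidedness did not hold under many settings. When replicate 12 was left out, 8 members passed, Adam19 and Serpina12 with positive means among them. At least 1 member with a positive mean also passed when any one of replicates 1, 2, 4, 7, 9, 10, 13 or 14 was left out. The same held with arrays scaled to a common spread (Adam19) and with replicate number range as a fixed block (Adamts10).

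The members' means lay on both sides of 0. The median of the 67 means was -0.03, against 0.0021 over all genes, and the means ran from -0.84 (Adamtsl5) to 0.74 (Cstf2t). Means below 0 were found for 37 members (55.2%), against 49.6% of all genes. A mean of at least 1.5-fold in size in either direction was found for 5 members (7.46%), against 4.44% of all genes. These were Adamtsl5, Adam17, Adam30, Adam8 and Cstf2t. The median SD over arrays was 0.88 for the members and 0.81 for all genes. Without the Cstf genes, the median of the 64 means was -0.04.

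**Figure D1:**
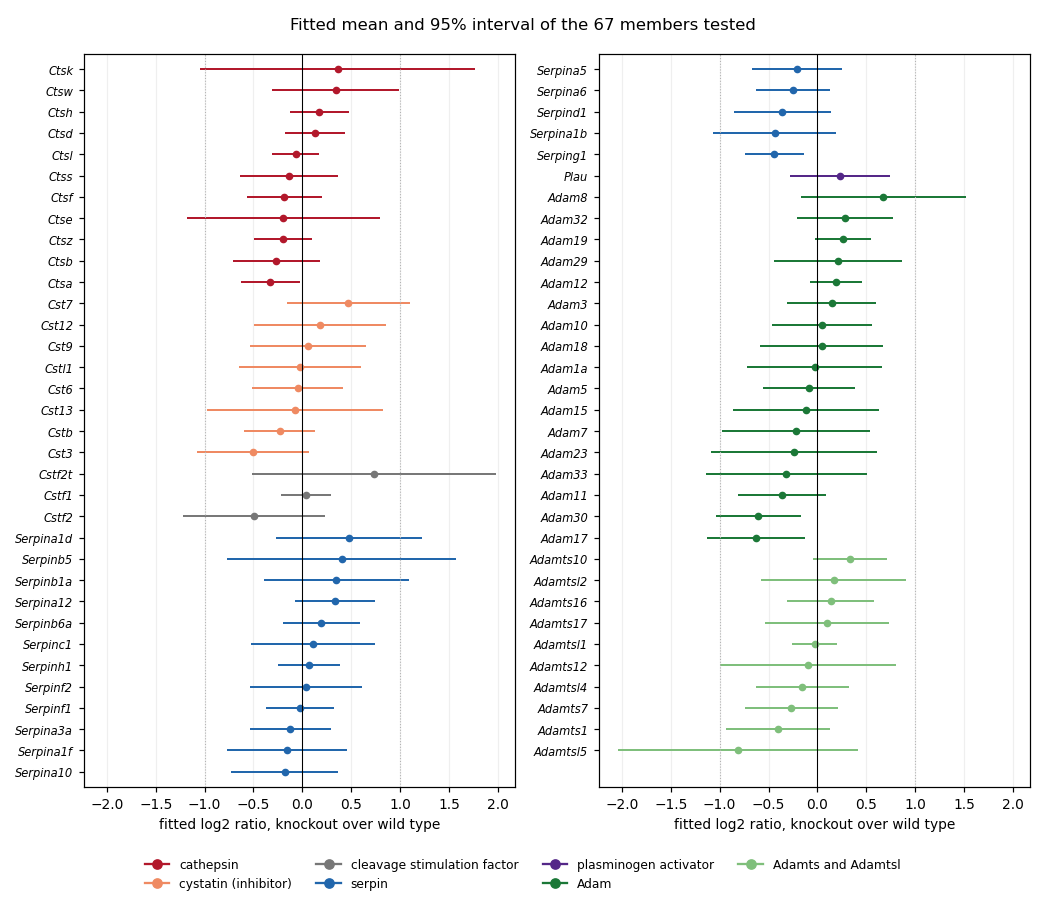
Fitted log2 ratio of knockout over wild type (x axis) with its 95% interval for each of the 67 members tested (rows), coloured by family. Dotted lines mark a 2-fold difference. Points lie on both sides of 0 in every family with more than 1 member, and the intervals of 51 members stay within the dotted lines.

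How far each value limits a difference is the main content of these arrays for the protease families. The 95% interval of the fitted ratio lay within 2-fold in either direction for 51 of 67 members (76.1%), against 81.2% of all genes. It lay within 1.5-fold for 18 members (26.9%), against 42.8% of all genes. The half-width of the interval ran from 0.22 (Adamtsl1) to 1.40 (Ctsk) log2 units, with a median of 0.50. A random block for each replicate number range in each dye allows for dependence only between arrays of the same range and dye. With it, 46 members stayed within 2-fold and 11 within 1.5-fold. Dependence across dyes, as from a shared culture, was not allowed for, so these intervals may still be too narrow. The 18 genes within 1.5-fold without the block included the cathepsins Ctsl, Ctsh, Ctsd, Ctsz and Ctsf, the cystatins Cstb and Cst6, the serpins Serpinh1, Serpinf1 and Serpinb6a, and the sheddases Adam10, Adam12 and Adam19. Of those named here, Ctsf, Cstb, Cst6, Serpinb6a and Adam19 were not within 1.5-fold with the random block. For Adam10 this bound holds for the average of both dye orientations, which differed widely.

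Cathepsins, the lysosomal proteases, were the family with the smallest median spread. Over the 11 genes the median of the means was -0.18, 7 means were below 0, and the median SD was 0.65. None was called by limma, and only Ctsa passed at an unadjusted p below 0.05. Ctsa, a lysosomal serine carboxypeptidase that also protects beta-galactosidase and neuraminidase, ranged from -0.99 to 0.38 with a median of -0.31. It was below 0 on 10 of 14 arrays, and its mean was -0.33 ± 0.45 (SD, n = 14). Its fitted interval was -0.62 to -0.03 (limma unadjusted p = 0.0321, adjusted p = 0.901). The unadjusted p in limma rose above 0.05 when any one of replicates 1, 3, 4, 11 or 12 was left out, with a highest value of 0.0706, and was 0.0574 with the random block.

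Ctsl, a cysteine protease that fibroblasts secrete as well as keep in lysosomes, was among the most tightly measured members. Its array values ran from -0.46 to 0.58 with a median of -0.11, and its mean was -0.07 ± 0.34 (SD, n = 14). The interval of -0.30 to 0.16 left outside it any level more than 1.23-fold lower or 1.12-fold higher in the knockout. The arrays with the knockout in Cy5 averaged 0.14 and those with it in Cy3 averaged -0.28 (limma dye term, unadjusted p = 0.0673, adjusted p = 0.695). All values with the knockout in Cy3 were below 0, between -0.464 and -0.105. Of the arrays with it in Cy5, only replicate 4 (-0.432) fell in that range. The share of all genes whose orientations separate this far is not given here. The interval bounds the average of both orientations.

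Ctsb, another abundant lysosomal cysteine protease, averaged -0.28 ± 0.72 (SD, n = 13), with array values from -1.51 to 1.05. Its 2 probes averaged -0.45 and -0.15. Ctsd, the main lysosomal aspartic protease, averaged 0.13 ± 0.52 (SD, n = 14) over array values from -0.56 to 1.19. The 2 Ctsd probes averaged 0.27 and -0.04, on opposite sides of 0. Replicates 1 to 6 had a Ctsd mean of 0.56 and replicates 7 to 12 one of -0.21, although these number ranges are not labelled groups. Ctsz, a carboxypeptidase, averaged -0.20 ± 0.47, and Ctsh, an aminopeptidase, 0.18 ± 0.47 (SD, n = 14 each). None of these 4 genes passed at an unadjusted p below 0.05.

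Of the remaining cathepsins, Ctsk, the collagen-degrading cathepsin best known from osteoclasts, had the widest interval of any member, -1.03 to 1.76, on only 10 arrays that ran from -2.80 to 3.60. Ctsw, a cathepsin of cytotoxic lymphocytes, had the highest mean of the family at 0.37, but replicate 12 stood at 3.44 and the mean without it was 0.06. Ctse spanned -1.90 to 4.52, with the highest value again on replicate 12. Ctsf averaged -0.18, with probe means of 0.09 and -0.35.

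Ctss, a cathepsin of antigen-presenting cells that is also a macrophage marker in the list used here, had means of opposite sign in the 2 dye orientations. It averaged 0.44 on the arrays with Cy5-labelled knockout RNA and -0.71 on those with Cy3-labelled knockout RNA (limma dye term, unadjusted p = 0.0236, adjusted p = 0.602). The array values of the orientations overlapped, running from -0.247 to 1.618 with Cy5-labelled and from -2.612 to 0.326 with Cy3-labelled knockout RNA. Averaged over both orientations Ctss was -0.18 ± 1.01 (SD, n = 13). The macrophage list beside it had a median of the means of -0.23, and its median on single arrays ran from -0.85 to 0.06, below 0 on 13 of 14 arrays. Its part in the cathepsin values was not tested.

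The other lysosomal genes give the setting of the cathepsins. The list held 43 symbols, older names of the same genes among them. Of these, 33 genes were tested, with a median of the means of -0.07 and 20 means below 0. None passed the adjusted test in limma (smallest adjusted p = 0.472). At an unadjusted p below 0.05, 5 (15.2%) passed, all in the lower direction, which held 2.94% of all genes: Hexa, a subunit of hexosaminidase, at -0.49, Npc2, a cholesterol carrier, at -0.44, Cd68 at -0.51, Lamp2, a lysosomal membrane protein, at -0.30, and Atp6ap1, an accessory subunit of the proton pump, at -0.32. Cd68 is also on the macrophage list. Hexa and Npc2 were each below 0 on 13 of 14 arrays. The highest mean of the list was that of Igf2r at 0.47, which was below 0 on 3 of 14 arrays. The median SD over arrays was 0.53 for the list, against 0.81 over all genes.

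Many lysosomal genes carry in their promoters the palindrome CACGTG, the core of the element bound by TFEB. RefSeq promoters (build GRCm38.p6, 250 bases before to 50 after the start) were found for 44 members, with 49 promoters. The other members, Serping1, Ctsb, Ctsh and Plau among them, had no promoter here and were not searched. CACGTG, which reads the same on both strands, was present in 8 of the 49 (16.3%), against 7.15% of all 32851 promoters. It was held by 2 of 10 Adam promoters (20%), 1 of 6 Adamts promoters (16.7%) and 1 of 3 Cstf promoters (33.3%). None of 6 cystatin and none of 16 serpin promoters held it. Of the 8 cathepsin promoters 4 (50%) did. The 4 are shown because they are the cathepsins that share this word, with CACGTG in capitals, 5′ to 3′ on the strand of the gene. They lie at chr2:164833523-164833822 (plus strand), chr7:142387778-142388077 (minus strand), chr19:4854915-4855214 (plus strand) and chr13:64370471-64370770 (minus strand).
Ctsa: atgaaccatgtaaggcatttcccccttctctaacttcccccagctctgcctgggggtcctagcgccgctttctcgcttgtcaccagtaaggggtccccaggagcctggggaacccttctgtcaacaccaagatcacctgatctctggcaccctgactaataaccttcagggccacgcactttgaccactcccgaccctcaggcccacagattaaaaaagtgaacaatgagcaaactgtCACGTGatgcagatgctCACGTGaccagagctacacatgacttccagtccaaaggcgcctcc
Ctsd: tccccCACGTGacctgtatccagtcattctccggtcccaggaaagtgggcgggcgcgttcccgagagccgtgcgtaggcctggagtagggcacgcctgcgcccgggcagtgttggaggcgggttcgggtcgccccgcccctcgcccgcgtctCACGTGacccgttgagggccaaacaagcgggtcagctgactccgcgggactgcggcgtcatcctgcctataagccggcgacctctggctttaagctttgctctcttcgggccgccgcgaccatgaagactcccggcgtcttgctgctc
Ctsf: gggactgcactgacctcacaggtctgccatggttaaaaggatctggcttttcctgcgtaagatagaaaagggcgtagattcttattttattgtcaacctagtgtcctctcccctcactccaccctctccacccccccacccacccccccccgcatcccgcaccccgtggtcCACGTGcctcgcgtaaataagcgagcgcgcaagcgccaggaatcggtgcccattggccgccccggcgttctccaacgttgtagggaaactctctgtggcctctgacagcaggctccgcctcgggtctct
Ctsl: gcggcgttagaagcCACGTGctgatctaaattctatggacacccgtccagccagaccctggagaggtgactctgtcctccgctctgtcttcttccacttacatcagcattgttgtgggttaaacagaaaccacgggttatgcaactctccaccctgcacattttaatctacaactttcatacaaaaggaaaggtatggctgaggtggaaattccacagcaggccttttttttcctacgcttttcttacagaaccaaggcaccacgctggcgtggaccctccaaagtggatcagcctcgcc
Ctsa and Ctsd hold the word at 2 places each, Ctsf and Ctsl at 1. Their mean ratios were -0.33, 0.13, -0.18 and -0.07 log2 units in that order, so genes that share the word had means on both sides of 0. A match is a description of the letters and not a binding site.

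Several of the 8 genes called over the whole array, such as Ifi27, Ifitm3 and Psmb8, are interferon-inducible, and interferon-induced promoters often carry the interferon-stimulated response element, here a pair of GAAA words spaced by any 2 bases. It was searched on both strands and found in 3 of the 49 member promoters (6.12%), those of Ctss, Serpina3a and Serpinb6a, against 3.44% of all promoters. Serping1, without a promoter here, was not searched. The Ctss promoter at chr3:95526536-95526835 (plus strand) is shown with its match in capitals, because Ctss is a cathepsin known to be induced by interferons.
Ctss: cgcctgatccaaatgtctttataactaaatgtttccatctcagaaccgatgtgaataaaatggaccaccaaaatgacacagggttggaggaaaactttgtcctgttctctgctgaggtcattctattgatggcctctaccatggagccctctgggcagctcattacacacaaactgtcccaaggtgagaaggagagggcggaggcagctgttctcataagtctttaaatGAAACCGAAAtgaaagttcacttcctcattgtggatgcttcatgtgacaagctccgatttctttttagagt
The mean ratios were -0.18 for Ctss, -0.12 for Serpina3a and 0.19 for Serpinb6a, and none of the 3 passed at an unadjusted p below 0.05 in limma.

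Cystatins, which inhibit cysteine cathepsins, showed no adjusted and no unadjusted call in limma among 8 genes, and their median was -0.04. Cst3 (cystatin C, the main secreted inhibitor of cathepsins) had the lowest mean at -0.48 ± 1.02 (SD, n = 13). Its array values ran from -2.07 to 1.64 with a median of -0.25, and 10 of 13 were below 0. The test gave an unadjusted p of 0.0737 in limma (adjusted p = 0.901). Cstb, an inhibitor kept inside the cell, averaged -0.23 ± 0.57 (SD, n = 14), and Cst6, a secreted inhibitor of the epidermis, -0.05 ± 0.82 (SD, n = 14). Cst7, a leukocyte cystatin, had the highest mean at 0.47, which became 0.19 without replicate 4 at 3.51.

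The 18 serpins held the member with the smallest p of all. Serping1, the C1 inhibitor that blocks the first complement proteases and kallikrein, ranged from -1.07 to 0.32 with a median of -0.54 and was below 0 on 11 of 14 arrays. Its mean was -0.44 ± 0.43 (SD, n = 14), equal to 1.36-fold, with a fitted interval of -0.73 to -0.15. The unadjusted p was 0.0057 and the adjusted p 0.711 in limma. The mean was alike in the 2 orientations, at -0.41 for Cy5-labelled and -0.47 for Cy3-labelled knockout RNA.

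The Serping1 values split by replicate number. Replicates 1 to 6 lay between -1.07 and -0.58, replicates 7 to 12 between -0.37 and 0.32, and replicates 13 and 14 at -0.76 and -0.50. The first range did not overlap the second, but the share of all genes that split in this way is not given here. The number ranges are not labelled groups, and whether they stand for the 2 cultures was not tested. With number range as a fixed block the adjusted p in limma was 0.253. With the random block the unadjusted p in limma was 0.0087 and the adjusted p 0.9999, the same adjusted value as for every other member tested. Leaving out any one array kept the unadjusted p between 0.0024 and 0.0134.

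**Figure D2:**
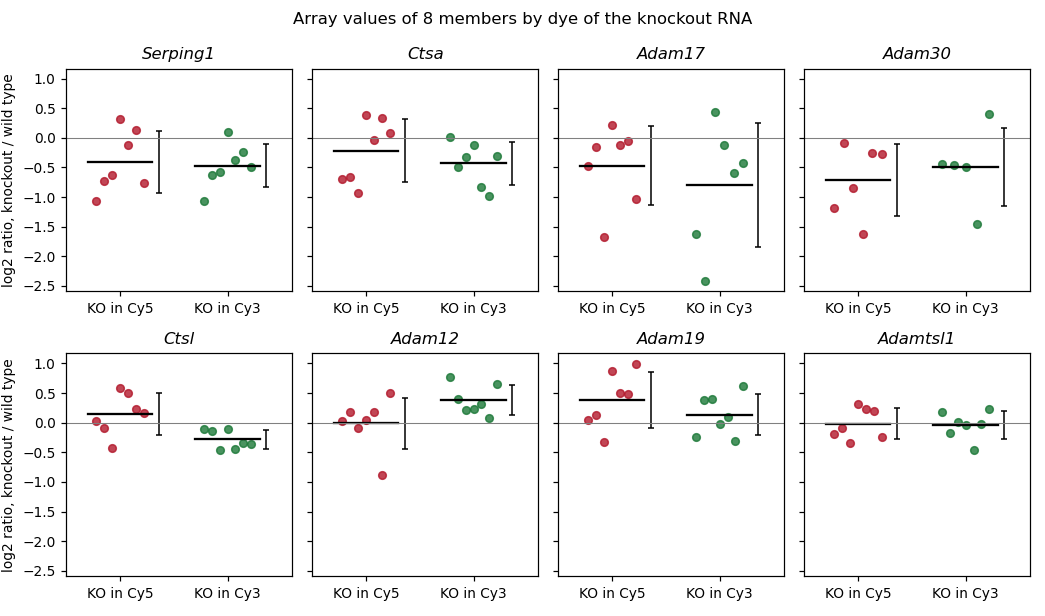
Log2 ratio of knockout over wild type on each array (points) for 8 members, split by the dye of the knockout RNA (x axis), with the mean (horizontal line) and SD (vertical bar). Serping1, Ctsa, Adam17 and Adam30 lie mostly below 0 in both orientations, while Ctsl and Adamtsl1 stay between -0.47 and 0.58.

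The other serpins gave a median of -0.03 with Serping1 included (17 tested, 9 means below 0), and none of them passed at an unadjusted p below 0.05. Serpinh1 (Hsp47, the collagen chaperone of the endoplasmic reticulum) averaged 0.07 ± 0.48 (SD, n = 14), and its 2 probes averaged -0.11 and 0.28. Serpinf1 (PEDF, a secreted serpin that does not inhibit proteases) averaged -0.03 ± 0.49 (SD, n = 12). The fitted intervals of both stayed within 1.5-fold. Serpinb6a, an intracellular inhibitor, averaged 0.19, with probe means of 0.55 and -0.16 on opposite sides of 0.

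Other serpins were measured with a wide spread, on few or on all arrays. Serpinc1 (antithrombin), measured on 14 arrays, ran from -1.81 to 3.43. Serpinb5 (maspin) had the highest mean, 0.40, over 10 arrays from -1.86 to 3.17. Serpinb2 (PAI-2, an inhibitor of urokinase) averaged 0.33 ± 1.25 (SD, n = 10) and was not tested. Its mean turned to -1.21 when coded extremes were kept. Serpina1b, an alpha-1-antitrypsin gene, averaged -0.44 with replicate 6 at -2.89, and its neighbour Serpina1d averaged 0.39 with replicate 6 at 3.32. The alpha-1-antitrypsin genes are near-identical copies, so their probes cannot be assumed to separate them. Over the 8 serpins on chromosome 12, where the Serpina genes lie together, the median was -0.17 and 6 means were below 0.

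Plau (urokinase, the plasminogen activator of migrating cells) was the only plasminogen activator among the members. Its array values ran from -0.67 to 2.92 with a median of 0.11, and its mean was 0.24 ± 0.88 (SD, n = 13). The high value came from replicate 2, and the mean without it was 0.02. Plau did not pass at an unadjusted p below 0.05 (limma p = 0.351). For the plasmin system and pericellular proteolysis 34 other symbols were listed, older names of the same genes among them. Of these, 21 genes were tested and none was called. At an unadjusted p below 0.05 in limma, 2 (9.52%) passed, against 5.35% of all genes. They were Eng, a TGF-beta co-receptor, at -0.34, and Prss23, a secreted serine protease, at 0.49.

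The Adam proteases included both surface sheddases and genes known from the male germ line. Over the 17 genes the median was -0.03, with 9 means below 0, and none was called by limma. Adam17 (TACE, which releases TNF and ligands of the EGF receptor) ranged from -2.42 to 0.44 with a median of -0.43 and was below 0 on 11 of 13 arrays. Its mean was -0.62 ± 0.84 (SD, n = 13), and the fitted interval was -1.12 to -0.14 (limma unadjusted p = 0.0152, adjusted p = 0.834). Replicates 2, 4 and 5 were the lowest, between -2.42 and -1.63. Leaving out single arrays moved its unadjusted p between 0.0051 and 0.0396.

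Adam30, known from testis, averaged -0.61 ± 0.61 (SD, n = 11) and was below 0 on 10 of 11 arrays. Its values ran from -1.63 to 0.40 with a median of -0.46, and its interval was -1.03 to -0.18 (limma unadjusted p = 0.0094, adjusted p = 0.834). The 5 germ-line Adam genes on chromosome 8 (Adam3, Adam5, Adam18, Adam29 and Adam32) had a median of 0.14, with 4 means above 0. Adam32 had the highest mean of these at 0.29, and its 3 probes averaged 0.47, 0.01 and 0.35.

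Among the other surface Adam proteases, Adam12 and Adam19 had values mostly above 0. Adam19 averaged 0.26 ± 0.42 (SD, n = 14), with an interval of -0.02 to 0.54 and values above 0 on 10 of 14 arrays. Adam12, which is made by mesenchymal cells and cleaves HB-EGF, averaged 0.19 ± 0.39 (SD, n = 14), with an interval of -0.07 to 0.44 and values above 0 on 12 of 14 arrays. The intervals of both held 0. Adam15 averaged -0.12 ± 1.31 (SD, n = 12). Adam8, a leukocyte sheddase, had the highest Adam mean at 0.68 ± 1.44 (SD, n = 10), which turned to -0.93 when coded extremes were kept, and 80% of its ratios were ratios of small whole numbers.

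Adam10, the main sheddase of Notch receptors and of the amyloid precursor protein, had the smallest p of any member for the dye term. On the 5 arrays with the knockout in Cy5 it lay between -1.43 and -0.23, and on the 6 with the knockout in Cy3 between -0.10 and 2.52. The orientations did not overlap, and their means were -0.86 and 0.96 (limma dye term, unadjusted p = 0.0018, adjusted p = 0.471). The share of all genes whose orientations did not overlap is not given here. The mean over all arrays, 0.13, therefore averages orientations whose means had opposite signs. Of 43 listed shedding partners and substrates, 29 were tested and none was called. At an unadjusted p below 0.05 in limma, 4 (13.8%) passed, against 5.35% of all genes. Aplp2 (-0.28), Icam1 (-0.52) and Prnp (-0.39) passed in the lower direction and Cdh2 (0.37) in the higher one.

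The 10 Adamts and Adamtsl genes gave no adjusted and no unadjusted call in limma, with a median of -0.09. Adamtsl1, a matrix protein without a protease domain, was the most tightly measured member, at -0.03 ± 0.24 (SD, n = 14) and with an interval of -0.25 to 0.19. Adamtsl5 had the lowest mean of any member, -0.84 ± 2.23 (SD, n = 13), but its arrays ran from -3.80 to 3.03 and its interval from -2.04 to 0.40. Adamts1, which cleaves versican and aggrecan, averaged -0.37 ± 0.88 (SD, n = 11), with replicate 9 at -2.74 and a mean of -0.13 without it. Adamts10 had the highest mean at 0.33 ± 0.72 (SD, n = 14), which turned to -0.27 when coded extremes were kept. For matrix substrates and partners 34 symbols were listed, older names of the same genes among them. Of these, 26 genes were tested, with a median of -0.09. Only Dcn (decorin, -0.65) passed at an unadjusted p below 0.05 in limma, 3.85% of the list against 5.35% of all genes.

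The dye orientation was tested over all members as the second term of the fit. No member was called for it in limma at an adjusted p below 0.05, against 0.0431% of all genes, and 5 members (7.46%) passed at an unadjusted p below 0.05, against 7.43% of all genes. They were Adam10, Adam33, Adamts10, Cstf2t and Ctss. Adam33 averaged -1.18 for Cy5-labelled and 0.54 for Cy3-labelled knockout RNA, and Cstf2t averaged -0.89 and 2.36 in that order. These 5 are also the members that would pass at an unadjusted p below 0.05 if the ratios of the Cy3 arrays had to be turned. With those arrays turned, the means were 0.03 for Serping1, 0.11 for Ctsa, 0.11 for Adam17 and -0.17 for Adam30, and none of these 4 passed.

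**Figure D3:**
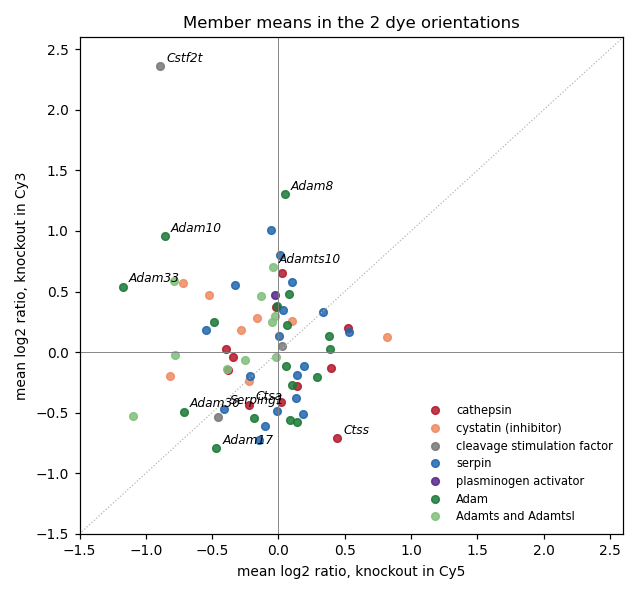
Mean log2 ratio of knockout over wild type on arrays with the knockout in Cy5 (x axis) and in Cy3 (y axis), 1 point for each of the 68 members, coloured by family. Points on the dotted diagonal are equal in both orientations. Serping1 lies near the diagonal, while Adam10, Adam33 and Cstf2t lie at the upper left.

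The spread of a member over arrays went with how its ratios were formed. Ratios of whole numbers up to 10, which stand in here for dim spots since no intensities were used, accounted for 13.4% to 31.4% of the values on an array. The median SD was 0.56 for the 12 members with up to 5% of such ratios, 0.72 for the 22 with 5 to 20% and 1.08 for the 34 with more. Across the 68 members, Spearman's rho between the share and the SD was 0.64, given as a description since the members share arrays. Both the highest and the lowest mean belonged to genes with an SD over 2, Cstf2t and Adamtsl5.

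**Figure D4:**
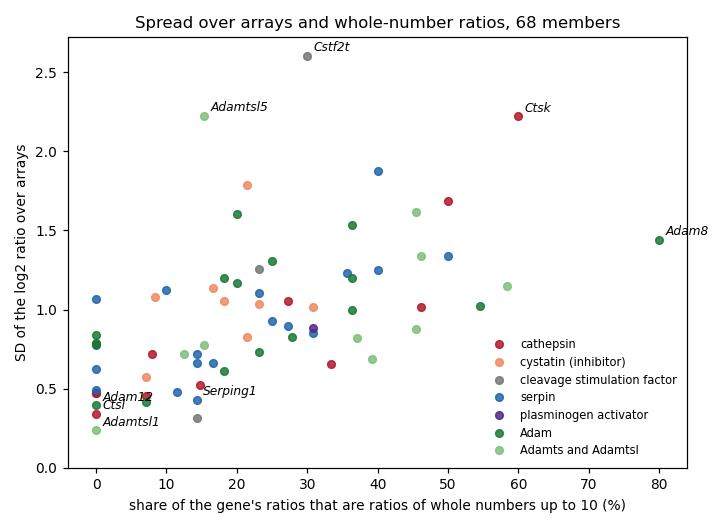
SD of the log2 ratio over arrays (y axis) against the percentage of a gene's ratios that are ratios of whole numbers up to 10 (x axis), 1 point for each of the 68 members, coloured by family. Ctsl, Adam12 and Adamtsl1 sit at the lower left with SDs of 0.34, 0.39 and 0.24, and Adam8, at 80%, lies farthest to the right.

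The minimum of 10 arrays decided membership for a few genes. Just inside it, on 10 arrays, were Adam7, Adam8, Cstf2t, Ctsk, Serpinb1a, Serpinb2 and Serpinb5, with means from -0.29 (Adam7) to 0.74 (Cstf2t). Just outside it, on 9 arrays, were Cstf3 (0.38), Serpina16 (0.30), Serpinb12 (0.58), Serpinb8 (1.20) and Serpini1 (0.14), and Serpina1e (-0.26) had 6. On all 14 arrays, 24 members had a value. For scale, the protease gene called most clearly on these arrays was Mmp13, a collagenase outside the families described here. It averaged -1.64 ± 0.59 (SD, n = 14), was below 0 on all 14 arrays and had a limma adjusted p of 0.000301.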

How the data were processed

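RNA of Ptdsr-/- and wild-type fibroblasts was measured on 14 two-colour cDNA arrays (7 with the knockout in Cy5, 7 in Cy3), grouped by the labels. The authors deposited log2 ratios for 20355 probes. The base was read from steps of whole-number ratios. The scanner, background correction, normalization and genome build were not given in the sources used here. Per the labels' protocols, RNA was labelled indirectly; that text speaks of organs and a pool of control animals, whereas the channel labels, followed here, name wild-type fibroblasts. The wild-type RNA served as the control on every array, so its own spread was not measured.

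The ratio direction is likely: the coded extreme (16.6 log2 units, a ratio of 100000, from an array's 1:1 step; 91 to 315 cells per array) was positive with the knockout in Cy5 and negative with it in Cy3, which is how turned Cy5 over Cy3 ratios would look. If the scanner ratio was Cy3 over Cy5, every sign turns. Coded extremes, read as values above 12 in size, were set to missing, arrays were median-centred (deposited medians -0.334 to 0.245), and probes of a gene averaged. Gene names came from the platform annotation: 14030 probes had 1 gene, 5 several and 6320 none. All 68 member symbols were current in RefSeq. Precision is limited by the number of arrays.

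Genes with values on at least 10 arrays and 4 of each dye were tested with limma 3.58.1 (R 4.3.3; lmFit, eBayes, intercept against 0, dye term of +1 or -1, Benjamini-Hochberg, call below 0.05), which was also tested on simulated data. In the simulated data, limma recovered 16% of genes shifted by 0.5 log2 units, 62% at 1 unit and 94% at 2. It made 11 false calls among 9270 genes. A gene that was not called may therefore still differ. Whole-number ratios were matched within 0.0011 log2 units. The members, gene lists and tests were chosen with earlier results of these data known. Named were members at an unadjusted p below 0.05 or called, the extremes of each family and a list by role. Other genes were named for their list, probes, array count, promoter word or dye term. Alternatives were other centring, missing-value filters, probe choice, dye handling, variance moderation, blocks and leaving out each array.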

Additional observations from a re-analysis of the deposited data

How the results depend on the processing

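No member was called, for the ratio or for the dye, under any of the 28 settings run (14 that leave out 1 array and 14 others), and the smallest adjusted p of a member was 0.253, for Serping1 with number range as a fixed block. The dye term was not run where it does not exist in the model. Members at an unadjusted p below 0.05 numbered 4, against 2 when values on all 14 arrays were required, which left 24 members, and 3 to 8 when single arrays were left out; the 8 came without replicate 12. The members' median ratio, -0.03, moved between -0.10 and 0.00 when single arrays were left out. Over all genes, 8 were called, against 4 with the Cy3 arrays turned, 0 with the Cy5 arrays alone, 0 with the Cy3 arrays alone, 0 with robust moderation and a trend on the mean ratio, 5 with a random block for number range within dye, 13 with number range as a fixed block, and 6 to 9 without single arrays; the causes were not tested. Of 877 values of named members under these settings, 822 kept their sign, and 3 moved by more than 1 SD: Adam8 (-0.93) and Serpinb2 (-1.21) with coded extremes kept, and Serping1 (0.03) with the Cy3 arrays turned. Adamts10 also changed sign with coded extremes kept (-0.27). With the Cy3 arrays turned, 11 of 32 kept their sign. Each ratio already pairs the knockout and wild-type RNA of its array, and the fit tested these ratios against 0. No further pairing of arrays with each other was possible, because there is only 1 series of replicate numbers. The ratios carry no intensity, so what signal over background limits could be read only through whole-number ratios.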
